A study of Canis lupus familiaris with 15 samples.

Results

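Healthy canine leg skin was represented by 5 of the 15 dogs of the series, chosen by their disease status in the labels alone and not by any measured value. The labels describe these samples as leg margins, read here as skin at the edge of a leg excision, and mark them as re-used from an earlier series. They give no age, breed or sex for these dogs, no position on the leg, and no reason why this skin was taken. The group set against them held 7 dogs with discoid lupus erythematosus (DLE), an autoimmune disease of the skin, aged 1 to 13 years. Single dogs with chronic cutaneous lupus (CCLE, with suspected systemic lupus), mucocutaneous lupus (MLE) and pyoderma entered only where this is stated. All samples were archival biopsies, fixed and embedded in paraffin, and no treatment is recorded for any of them. Nothing in the labels says that 2 samples came from the same animal, and the 15 were counted as different dogs; p-values measure only the spread between these samples.

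Skin is built of an outer epidermis of keratinocytes and an inner dermis of collagen, vessels and fibroblasts, through which hair follicles and sebaceous glands run. Basal keratinocytes make KRT5 and KRT14, and when they move outwards they switch to KRT1 and later to proteases such as KLK7 that loosen the horny layer. Melanocytes in the basal layer and hair bulbs supply pigment, mast cells and macrophages reside in the dermis, and healthy skin holds few B cells. A whole biopsy mixes all of these, so that fewer cells of a type and less RNA per cell cannot be told apart in the values below.

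A custom NanoString panel of 160 probes was counted in each sample. The assay hybridises a colour-coded reporter to each target RNA and counts single reporters without amplification, so a count does not scale with transcript length. Probes still differ in how well they capture their target, and a rank between genes is therefore a rank of probe counts. Of the 160 probes, 72 matched a gene symbol and 88 are known here by accession alone. The healthy dogs 1 to 5 gave 209889, 370814, 675018, 336931 and 307735 panel counts. Their 6 high spike-in control rows ran the other way, the brightest of them standing at 75284, 64178, 42128, 69056 and 64283 counts. Healthy dog 3 therefore had the most panel signal and the least control signal. Normalised counts, used for all levels below, are counts divided by TMM-scaled library sizes and set to the mean of those sizes. A probe was called above background in a dog when its raw count passed the mean plus 2 SD of the 8 lowest control rows of that dog. These limits lay close together in raw counts, at 27.8, 26.8, 22.8, 24.5 and 24.2 in healthy dogs 1 to 5. On the normalised scale they ran from 13.6 in dog 3 to 42.7 in dog 1, so that the weakest genes could be seen in dog 3 more readily than in the others.

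Collagen and keratin genes were among the highest of the panel in healthy skin. COL1A1, a chain of type I collagen, was the highest of all probes, followed among the named genes by KRT5, B2M, RPL13A, KRT1 and KRT14. The 10 highest probes, 6 of them with a symbol, held 78.4%, 81.3%, 80.6%, 81.3% and 74.7% of the panel counts in dogs 1 to 5. By mean normalised count, 31 of the 160 probes lay above 1000 and 75 below 100, and the median was 119.5. The order of the probes was similar in all dogs, with Spearman's rho from 0.92 to 0.961 over the 160 probes in the 10 pairs of dogs, a description across probes that are not independent of one another.

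COL1A1 stood at 32802, 131993, 49042, 53634 and 77401 normalised counts in dogs 1 to 5, with a mean of 68974 ± 38676 (SD, n = 5). Dog 2 was the highest and dog 1 the lowest. KRT5 stood at 32479, 26383, 44156, 79475 and 49407 normalised counts, highest in dog 4 and lowest in dog 2. B2M, the light chain that all MHC class I molecules share, averaged 40269 ± 8014 normalised counts and differed 1.78-fold between its extreme dogs. The ribosomal protein gene RPL13A averaged 30352 ± 8363 and HPRT1, an enzyme of purine salvage, 791.8 ± 131 normalised counts. HPRT1 was thus among the steadiest named genes, with an SD of 0.22 on the log2 scale. CXCL12, a chemokine made by dermal fibroblasts, was the 11th highest probe at 7992 ± 1330 normalised counts and nearly as steady, with an SD of 0.26 on the log2 scale. HIF1A, the oxygen-sensing transcription factor, averaged 3375 ± 937, the heat shock gene HSP70 2460 ± 942 and CYP1B1, a cytochrome P450 enzyme of hormone and xenobiotic metabolism, 2732 ± 1512 normalised counts.

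**Figure D1:**
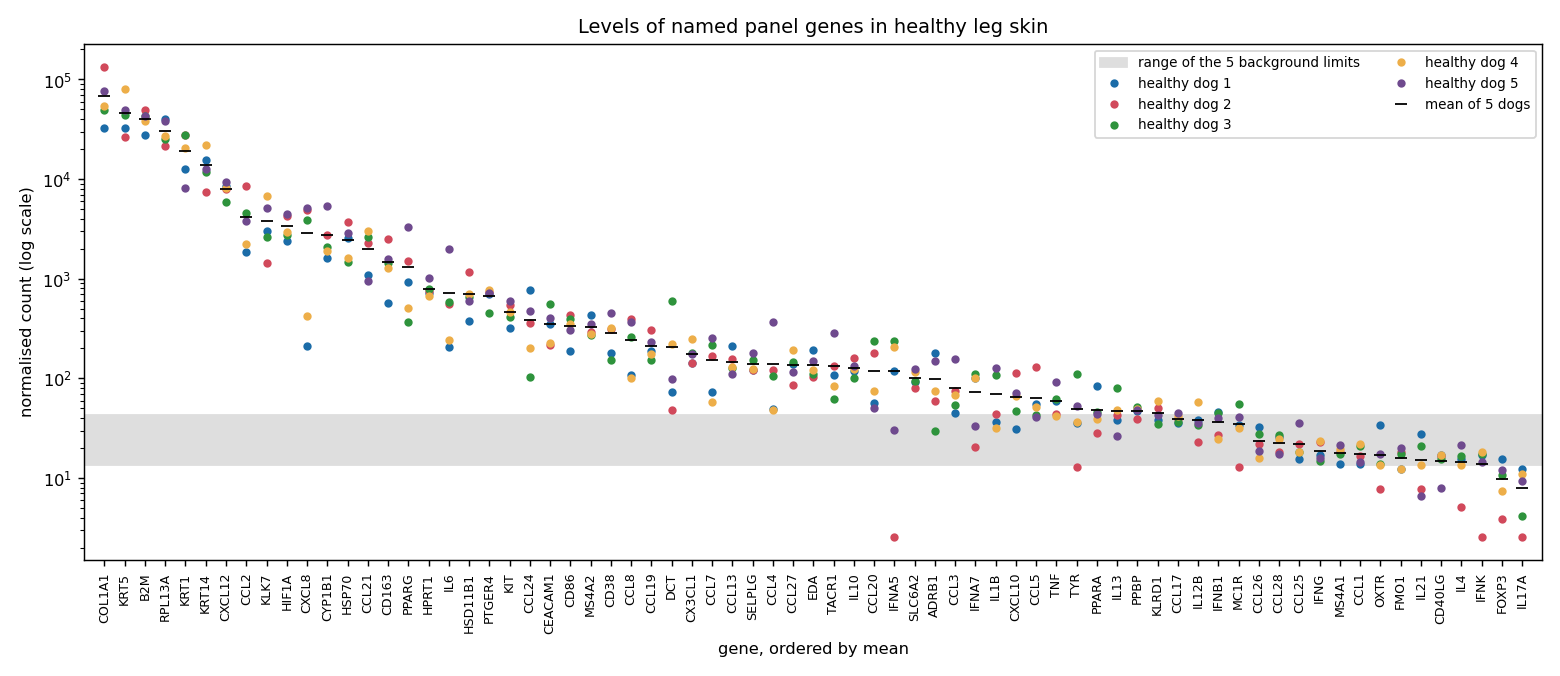
Normalised counts (log scale) of the named panel genes reported here in each of 5 healthy dogs (coloured points), ordered by their mean (black dash), with the range of the 5 background limits shaded. Levels run from a mean of 68974 for COL1A1 to 7.87 for IL17A, and the genes from about TYR onwards lie in or near the shaded range of 13.6 to 42.7.

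Counts of the basal keratins relative to COL1A1 differed widely between the healthy dogs. COL1A1 itself ranged 4.02-fold between the dogs, whereas CXCL12, also of the dermis, ranged 1.62-fold. The ratios below therefore describe these probes, and the share of epidermis in a biopsy was not tested. Ratios of 2 probes within a dog do not depend on any scaling. KRT5 over COL1A1 was 0.990, 0.20, 0.90, 1.48 and 0.638 in dogs 1 to 5, a 7.41-fold range, and KRT14 over COL1A1 ranged 8.60-fold, from 0.0556 in dog 2 to 0.479 in dog 1. Dog 2 was the lowest for both, by more than 2-fold below the next dog. The 2 basal keratins kept closer together, as KRT5 over KRT14 stayed between 3.59 and 3.90 in dogs 2 to 5 and was 2.07 in dog 1.

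KRT1, the keratin of the layers above, did not follow the basal keratins. It stood at 12495, 27568, 27927, 20407 and 8106 normalised counts in dogs 1 to 5, and KRT1 over KRT14 was 0.796, 3.76, 2.38, 0.923 and 0.640. Dogs 2 and 3 were highest in KRT1, whereas dog 2 was the lowest in KRT5, KRT14 and KLK7. KLK7 stood at 3005, 1442, 2636, 6766 and 5077 normalised counts, and KLK7 over KRT1 ranged 11.97-fold, from 0.0523 in dog 2 to 0.626 in dog 5. The probe whose ratio to KRT1 was steadiest was NM_001013425.1, which has no symbol here and was the 2nd highest of all probes. KRT1 over this probe stayed between 0.279 and 0.337 in the 5 dogs, an SD of 0.105 on the log2 scale, against a median SD of 0.721 over the 4560 pairs of the 96 probes above background in all dogs. Only 8 of these pairs had an SD as low. Such partners were chosen for their closeness among all probes, so these values describe the pairs and carry no test.

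Of the 160 probes, 96 were above background in all 5 healthy dogs, 54 in 1 to 4 of them and 10 in none. Among the 72 named genes these counts were 46, 24 and 2. Every named gene of the keratinocyte (4), stroma and appendage (3), macrophage and mast cell (4), antigen presentation and adhesion (2) and stress and housekeeping (4) groups was above background in all 5 dogs, and no named interferon (0 of 5) was. Dog 3, with the most panel counts, had the most probes above background (148). The other dogs did not follow their panel counts, as dog 2 had 105 probes above it, fewer than dogs 4 (116) and 5 (114). Of the 28 probes above background in 1 dog alone, 26 were so in dog 3, as were all 11 named ones. Without dog 3, 96 probes were above background in all 4 remaining dogs, 28 in some and 36 in none. With 1 normalised limit for all dogs, set at that of dog 1, 88 probes passed in all dogs, 28 in some and 44 in none. The class found in all dogs thus held 88 to 96 probes in these counts. Other settings gave more, at 99 with the limit at the highest of the 8 low rows and 115 with it at their mean. Without dog 1 the class held 102 probes in the 4 remaining dogs.

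**Figure D2:**
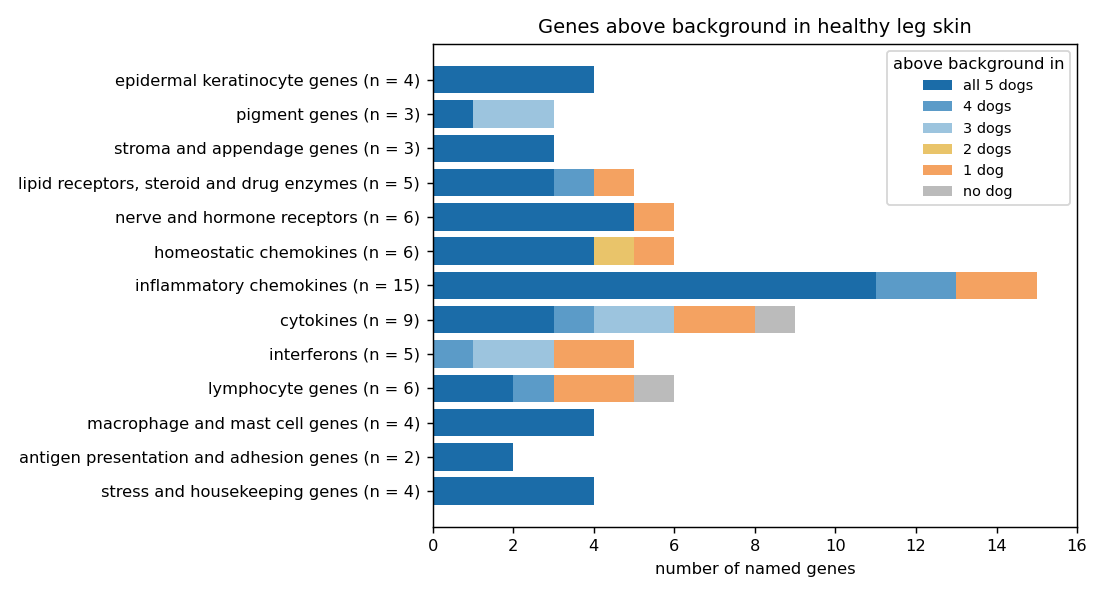
Number of named genes in each of 13 functional groups (n in brackets), split by the number of the 5 healthy dogs in which the gene passed the background limit. The keratinocyte, stroma, macrophage and mast cell, antigen presentation and housekeeping bars are filled by genes found in all 5 dogs, while the interferon bar holds none of these.

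Genes of mast cells and macrophages were above background in every healthy dog. KIT, the receptor for stem cell factor on mast cells and melanocytes, stood at 319, 539.7, 409, 459.9 and 603 normalised counts in dogs 1 to 5. MS4A2, the beta chain of the IgE receptor of mast cells, stood at 434.5, 290.5, 272, 282 and 353, a 1.60-fold range. MS4A2 over KIT was 1.36 in dog 1 and between 0.538 and 0.664 in the other dogs. CD163, a scavenger receptor of macrophages, was higher at 1474 ± 706 normalised counts, and ranged from 565 in dog 1 to 2530 in dog 2. CD86, through which dendritic cells and macrophages costimulate T cells, averaged 336 ± 95.2. The anti-inflammatory cytokine IL10 averaged 127 ± 21.7 normalised counts, above background in all 5 dogs and among the steadiest genes with an SD of 0.24 on the log2 scale.

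Of the 6 lymphocyte genes, 2 were above background in all 5 dogs and the other 4 in some or none. SELPLG, the selectin ligand carried by most leukocytes, averaged 140 ± 26.5 normalised counts, and CD38, a surface enzyme of plasma cells and activated lymphocytes, 285 ± 123, both above background in all 5 dogs. KLRD1, part of a receptor on natural killer and cytotoxic T cells, passed in 4 dogs, at raw counts of 25, 39, 58, 48 and 32. MS4A1, which encodes the B cell protein CD20, had raw counts of 9, 14, 29, 16 and 16, and CD40LG, the helper T cell ligand that stimulates B cells, had 11, 13, 26, 14 and 6. Both passed in dog 3 alone, and by a few counts. FOXP3, which defines regulatory T cells, passed in no dog, with raw counts of 10, 3, 18, 6 and 9. The T cell marker CD3E was not among the named probes.

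Most named cytokines lay at the edge of detection, whereas IL6 did not. IL17A, the main cytokine of Th17 cells, passed in no dog, with raw counts between 2 and 9. IL4 and IL21, made by helper T cells, passed in dog 3 alone, and IFNG in dog 3 alone at 25 counts against a limit of 22.8. IL13 and IL12B each passed in 3 dogs and IL1B, which triggers acute inflammation, in 4. TNF passed in all 5 at 59.9 ± 20.02 normalised counts. IL6, an inducer of the acute phase, averaged 717 ± 733 normalised counts (398.7 without dog 5) and is described with the variable genes.

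Chemokines that guide cells through skin at rest were present at moderate levels. CCL21, which lymphatic vessels make to draw dendritic cells through the receptor CCR7, was the highest of the 6 genes of this group, which leaves out CXCL12, at 1999 ± 934 normalised counts, against 210 ± 60.2 for CCL19, the other ligand of that receptor. CCL27, the keratinocyte chemokine of skin-homing T cells, averaged 136 ± 39.0 and CX3CL1, a membrane-bound chemokine of endothelium and epithelium, 178 ± 42.3 normalised counts. All 4 were above background in all 5 dogs. The other 2 were not, as CCL28, a chemokine of mucosal epithelium, passed in dog 3 alone and CCL25, which is known from gut and thymus, in dogs 3 and 5. Among the 15 inflammatory chemokines, 11 passed in all 5 dogs, led by CCL2, the main attractant of monocytes, at 4202 ± 2666 normalised counts. CXCL10, an interferon-induced chemokine, passed in 4 dogs at raw counts of 20, 87, 80, 54 and 54, and CCL5, which attracts T cells, in all 5 at 36, 100, 73, 42 and 31.

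The 5 interferons on the panel were found in some dogs only. IFNA5 stood at raw counts of 78, 2, 397, 169 and 23 in dogs 1 to 5, and IFNA7 at 66, 16, 187, 83 and 25. Dogs 1, 3 and 4 were above background for both, dog 2 for neither, and dog 5 by less than 1 count for IFNA7 alone. Both genes ranked the dogs in the same order, from dog 3 to dog 2, and in dog 2 IFNA5 had 2 counts. IFNA5 over IFNA7 ran from 0.125 in dog 2 to 2.12 in dog 3, a 16.98-fold range in which the lowest value rests on 2 counts. The genes of this family are closely alike, no probe sequence was used here, and whether each probe reads its own gene alone was not tested. IFNB1 passed in dogs 1, 3 and 5, by a few counts in dogs 1 and 5, at raw counts of 30, 21, 75, 20 and 30. IFNK, an interferon of keratinocytes, passed in dog 3 alone, with 29 counts there and 2 in dog 2.

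Receptors and enzymes that respond to nerves, hormones and lipids were largely present. PTGER4, a receptor of prostaglandin E2, averaged 677 ± 128 normalised counts with 4 dogs between 711 and 776 and dog 3 at 453. SLC6A2, the noradrenaline transporter, was steady at 101 ± 18.1. HSD11B1, which regenerates active glucocorticoid in the cell, averaged 699 ± 290 and EDA, the ligand that directs hair and gland development, 136 ± 36.0. All of these passed in all 5 dogs. PPARA, a nuclear receptor for fatty acids, passed in 4 dogs, whereas OXTR, the oxytocin receptor, and FMO1, a flavin monooxygenase, passed in dog 3 alone. OXTR stood at raw counts of 22, 6, 23, 11 and 13, so that dog 1 differed from dog 3 by 1 count.

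Spread between the healthy dogs had a median SD of 0.44 on the log2 scale over the 96 probes above background in all of them (0.94 with spike-in scaling), and ranged from 0.11 to 2.19. In 94 of the 96 this SD was larger than counting error alone would give, and 2 probes, PPBP among them, fell below it. PPBP, a platelet chemokine, had raw counts of 31, 30, 87, 40 and 36 and an SD of 0.16. Of the 46 named genes in this class, 7 had an SD above 1 (CXCL8, DCT, IL6, PPARG, CCL4, CCL24 and ADRB1) and 7 an SD below 0.3. Inflammatory chemokines had a median SD of 0.94 (11 genes), against 0.69 for the 4 keratinocyte genes and 0.40 for the 4 stress and housekeeping genes.

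**Figure D3:**
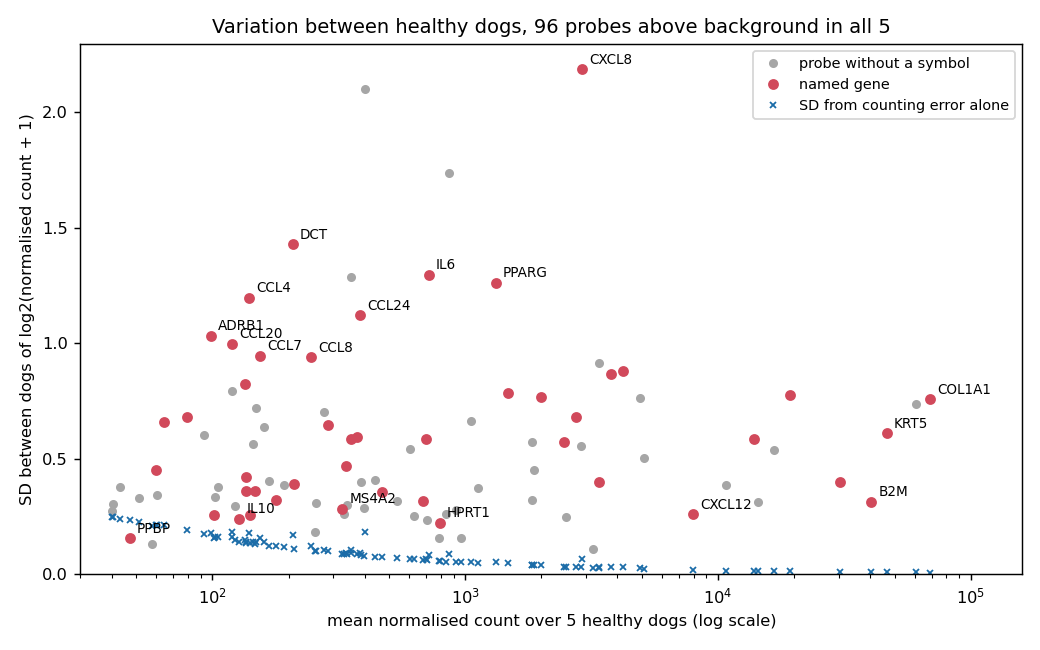
SD between the 5 healthy dogs of log2(normalised count + 1) against the mean normalised count (log scale) for the 96 probes above background in every dog; red points are named genes, grey points probes without a symbol, and blue crosses the SD that counting error alone would give. CXCL8 stands highest at 2.19, DCT, IL6 and PPARG lie between 1.26 and 1.43, and CXCL12, HPRT1 and B2M lie below 0.32.

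CXCL8, the chemokine that draws neutrophils, varied most. It stood at 212, 4949, 3869, 427 and 5081 normalised counts in dogs 1 to 5, a 24.0-fold range, with dogs 1 and 4 low and the other 3 high. The same split held as a ratio within a dog, as CXCL8 over B2M was 0.00766 and 0.0111 in dogs 1 and 4 and at least 0.0897 in the others. IL6 stood at 206, 562, 582, 245 and 1990 normalised counts, and CCL4, which attracts monocytes and T cells, at 49.1, 120, 106, 47.8 and 372. Dogs 1 and 4 were lowest for these genes too, and dog 5 was highest. Without dog 5 the SD fell to 0.78 for IL6 and to 0.70 for CCL4, and the mean of CCL4 was 80.7 normalised counts in place of 139. IL6 over CCL4 stayed between 4.19 and 5.5 in the 5 dogs, although in dogs 1 and 4 the raw CCL4 counts of 32 and 39 lay near the limit. CCL3 is a close relative of CCL4, and whether the CCL4 probe reads it too was not tested.

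The monocyte attractants CCL2, CCL7 and CCL8 showed the same 2 dogs at the bottom. CCL2 stood at 1835, 8512, 4620, 2221 and 3821 normalised counts, CCL7 at 73.7, 167, 216, 57.6 and 254, and CCL8 at 109, 391, 263, 101 and 364. Of the 14 named inflammatory chemokines and cytokines above background in all dogs, dogs 1 and 4 were the lowest 2 for 6 (42.9%), against 17 of all 96 probes (17.7%). These 6 genes (CXCL8, IL6, CCL2, CCL4, CCL7, CCL8) had dogs 1 and 4 lowest under TMM and the 6 other scalings, whereas the share over all probes moved from 8.33% with the panel median to 40.6% with the spike-ins. This order was looked for after the values were seen, so it is a description. Not all inflammatory genes shared it: CCL20, an attractant of Th17 and dendritic cells, stood at 56.8, 181, 236, 74.8 and 50.5, with dogs 1 and 5 lowest. CCL24, an eosinophil chemokine, ran differently again, at 772, 358, 103, 200 and 479.6, highest in dog 1 and lowest in dog 3. Dog 1 also had the weakest panel signal and the largest share of counts in control rows, 33.3% (against 8.04% to 22.9% in the others), and the part of signal strength in these orders was not tested.

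Pigment genes were highest in dog 3. DCT, an enzyme of melanin synthesis, stood at 73.7, 47.8, 595, 222 and 99.6 normalised counts in dogs 1 to 5. TYR, which carries out the first step of melanin synthesis, stood at 35.3, 12.9, 111, 36.8 and 53.1 and MC1R, the receptor that switches on dark pigment, at 33.8, 12.9, 54.7, 31.9 and 41.2. Dog 3 was the highest and dog 2 the lowest for all 3 in normalised counts. TYR and MC1R passed the background limit in dogs 3, 4 and 5 only. Set over KRT5 within a dog, DCT was 0.0135 in dog 3 and at most 0.00279 in the others. TYR over KRT5 was 0.0025 in dog 3 and at most 0.00109 in the others. MC1R over KRT5 was 0.00124 in dog 3 and 0.00104 in dog 1. In dog 1 both TYR and MC1R lay below the limit, so its ratios for them are upper bounds. Without dog 3 the SD of DCT fell to 0.93 and its mean was 110.8 normalised counts in place of 208; with spike-in scaling the SD was 2.19. The labels give no coat or skin colour.

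PPARG, the nuclear receptor of fat and sebaceous cells, was highest in dog 5. It stood at 923, 1500, 365, 507 and 3295 normalised counts in dogs 1 to 5, with a mean of 1318 (823.5 without dog 5). The probe XM_548191.4, without a symbol here, followed it at 278, 349, 90.4, 135 and 911, so that PPARG over this probe stayed between 3.32 and 4.304 while PPARG itself ranged 9.04-fold. Only 25 of the 4560 pairs of probes held a ratio as steady. TACR1, the receptor of the neuropeptide substance P, was also highest in dog 5 and lowest in dog 3, at 107, 132, 62.4, 84.6 and 287 normalised counts. ADRB1, the beta-1 adrenergic receptor, stood at 180, 59.4, 29.7, 74.8 and 149, highest in dog 1. With spike-in scaling the SD fell to 0.53 for ADRB1 and 0.57 for CCL24, while that of PPARG was 1.04 (1.26 under TMM). Among probes without a symbol, XM_003434905.4 varied most (SD 2.10), at 43.0, 182, 1604, 46.6 and 137 normalised counts, followed by XM_005622816.3 (SD 1.74), at 3315 in dog 1 and 167 to 368 in the others.

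**Figure D4:**
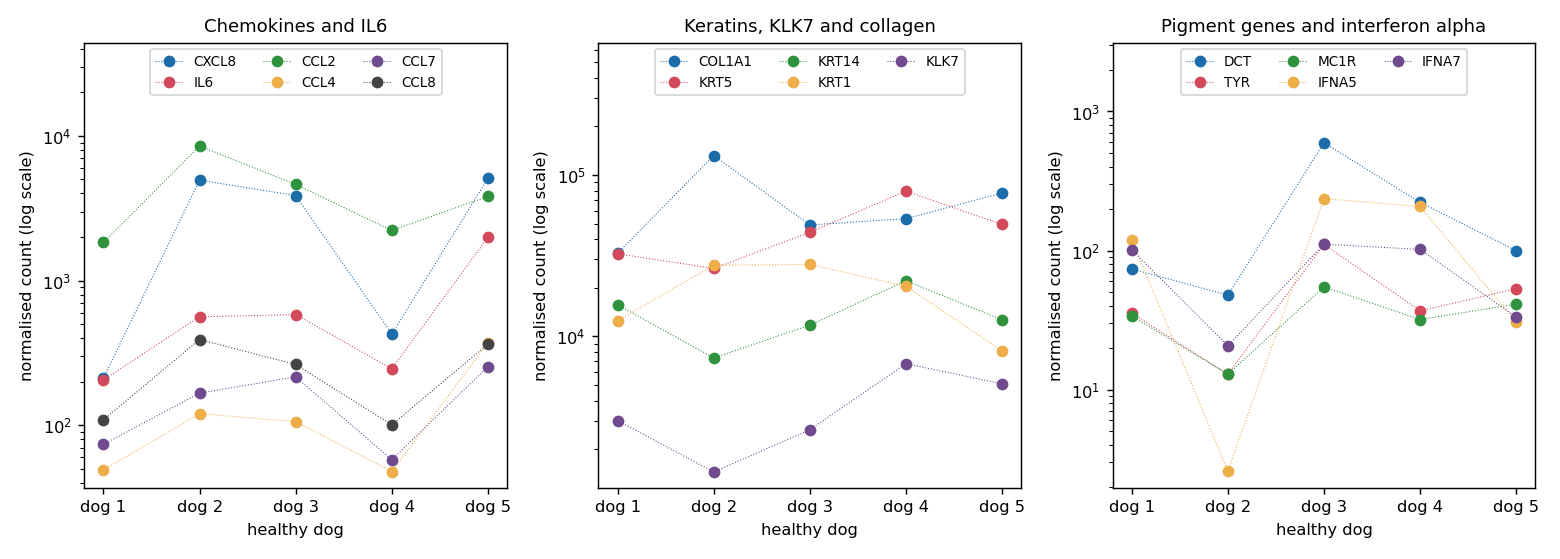
Normalised counts (log scale) in the 5 healthy dogs, one column per dog, for 6 inflammatory genes, for keratins with KLK7 and COL1A1, and for pigment and interferon alpha genes; dotted lines only join the points of a gene, as the dogs have no order. Dogs 1 and 4 are lowest for all 6 genes of the first panel, dog 2 is highest in COL1A1 and lowest in KRT5, KRT14 and KLK7, and dog 3 is highest in DCT, TYR and MC1R.

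To show where healthy skin differs from a lupus lesion, the 7 DLE dogs were compared with the 5 healthy dogs. More probes were above background in DLE than in healthy skin, at 136 ± 7.72 probes per DLE dog (126 to 151, n = 7) and 117 ± 18.1 per healthy dog (103 to 148, n = 5), a difference of 18.8 (exact permutation test, two-sided, p = 0.0379, where the smallest possible is 0.00253). Panel counts ran from 495839 to 587169 in DLE dogs, and from 209889 to 370814 in 4 healthy dogs with 675018 in healthy dog 3, and the part of panel counts in this difference was not tested. With 1 dog left out, the difference missed the threshold in 10 of 12 cases (exact p = 0.0519 to 0.0909, difference 15.3 to 19.5) and was 26.5 without healthy dog 3 (exact p = 0.00606). Of the 96 probes above background in all healthy dogs, 89 were above it in all 7 DLE dogs and 7 in some of them. ADRB1 passed in 5 of 5 healthy dogs and in 1 of 7 DLE dogs. In edgeR's quasi-likelihood test 95 of 154 probes (61.7%) passed an adjusted p of 0.05, 58 (37.7%) higher and 37 (24%) lower in DLE skin. Reference gene scaling gave 82 higher and 17 lower, spike-in scaling 56 and 17, and DESeq2 56 and 51. The log2 changes over all probes had a median of 0.42 with TMM, 1.06 with reference genes, 0.70 with spike-ins and 0.11 with DESeq2. Spike-in scaling rested on other control rows in DLE than in healthy dogs, so its values cannot be told apart from that difference. Of the 94 tested probes in the class found in all healthy dogs, 26 (27.7%) were higher and 30 (31.9%) lower, and their median log2 change was -0.20. Since the class was set from the healthy counts that enter the same contrast, nothing is read from these shares.

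All 7 DLE dogs had other high control rows than all 5 healthy dogs, so this technical set and the diagnosis cannot be told apart between these 2 groups, and no within-set comparison of DLE with healthy skin exists. A fit with the set as a block is possible only when the CCLE, MLE and pyoderma dogs are added (9 lupus against 6 control dogs), where 34 probes were higher and 6 lower. Its contrast within a set rests on the single CCLE and pyoderma dogs, so its values, given below, are no test of DLE against healthy skin. DLE dog 3 also stood apart in scaling, with the largest factor between raw and normalised counts of the 12 dogs (1.93).

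Among named genes found in all or none of the healthy dogs, CCL5, CCL19, SELPLG, FOXP3, CEACAM1 and PPBP rose most in DLE skin. This choice left out genes found in 1 to 4 healthy dogs, and CXCL10 among those rose more than any of these 6. It stood at 441 to 18924 normalised counts in DLE dogs and 30.7 to 112 in healthy dogs (log2 6.98, edgeR adjusted p = 3.18e-05). Healthy dog 1 lay below its limit for CXCL10, so this change is no exact fold. CCL5 stood at 622 to 5325 normalised counts (median 3341) in DLE dogs and at 41.2 to 129 in healthy dogs (log2 5.67 ± 0.60 SE, edgeR adjusted p = 7.42e-06). CCL19 stood at 504 to 1994 in DLE dogs and at 152 to 305 in healthy dogs (log2 2.43 ± 0.38, edgeR adjusted p = 0.000176). SELPLG stood at 439 to 1357 in DLE dogs and 121 to 181 in healthy dogs, and FOXP3, at background in every healthy dog, at 17.3 to 83.1 against 3.87 to 15.4 normalised counts. For CCL5, CCL19 and SELPLG the groups did not overlap (log2 2.42 for SELPLG). Many other tested probes, higher or lower in DLE skin, did not overlap either, so this does not set the named genes apart. The genes named here were chosen for their large changes, so nothing is read from this lack of overlap. FOXP3 values lay apart too (log2 2.31), but the limit of healthy dog 1 was 42.7 normalised counts, above the 17.3 of the lowest DLE dog. For FOXP3 a separation is therefore not shown. FOXP3 passed the background limit in 6 of 7 DLE dogs and in no healthy dog, so its level in healthy skin is an upper bound and its fitted change is not an exact fold. CEACAM1, an adhesion molecule of epithelium and leukocytes (log2 2.001), and PPBP (1.85) also rose without overlap, and the edgeR adjusted p of these last 4 lay between 2.37e-05 and 0.000489. In the blocked fit of lupus against control dogs the log2 values were 3.52 for CCL5, 2.06 for CCL19, 2.04 for SELPLG, 2.10 for FOXP3, 0.78 for CEACAM1 and 0.83 for PPBP, the last 2 with edgeR adjusted p = 0.195 and 0.472.

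By the same choice, PPARG, CCL24, ADRB1, CCL27, CXCL12 and CYP1B1 fell most in DLE skin. CXCL12 stood at 1218 to 3751 normalised counts (median 1624) in DLE dogs and at 5842 to 9443 in healthy dogs (log2 -1.99 ± 0.31, edgeR adjusted p = 0.000155). CYP1B1 stood at 349 to 1150 in DLE dogs and 1603 to 5327 in healthy dogs, and CCL27 at 16.8 to 42.3 in DLE dogs and 86.5 to 193 in healthy dogs. CCL27 passed the background limit in 5 of 7 DLE dogs, so its lowest DLE values are upper bounds. ADRB1 stood at 7.97 to 22.4 in DLE dogs, which is an upper bound in 6 of them, and at 29.7 to 180 in healthy dogs. CXCL12, CYP1B1 and CCL27 did not overlap between the groups. PPARG (76.9 to 569 in DLE dogs, 365 to 3295 in healthy dogs) and CCL24 (23.1 to 108 in DLE dogs, 103 to 772 in healthy dogs) did. ADRB1 values lay apart, but the limit of DLE dog 3 was 36.9 normalised counts, above the 29.7 of the lowest healthy dog. A separation is therefore not shown for ADRB1, and nothing is read from a lack of overlap in genes chosen for large changes. The log2 changes were -1.88 for CYP1B1, -2.33 for CCL27, -2.53 for ADRB1, -2.91 for PPARG and -2.88 for CCL24 (edgeR adjusted p between 2.04e-05 and 0.00129). Those of ADRB1 and CCL27 are no exact folds. In the blocked fit of lupus against control dogs (edgeR adjusted p between 0.0883, that of CCL27, and 0.608, that of ADRB1) the log2 values were -0.92 for CXCL12, -0.65 for CYP1B1, -1.35 for CCL27, -0.42 for ADRB1, -1.62 for PPARG and -1.28 for CCL24. IFNA5, found in 3 of 5 healthy dogs, passed the limit in 0 of 7 DLE dogs, at 4.78 to 21.2 normalised counts in DLE dogs and 2.58 to 236 in healthy dogs. The DLE values are upper bounds, so no fold is given, and the groups overlapped through healthy dog 2. The body site of the lesions is not given in the labels, so that site too cannot be told apart from diagnosis.

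**Figure D5:**
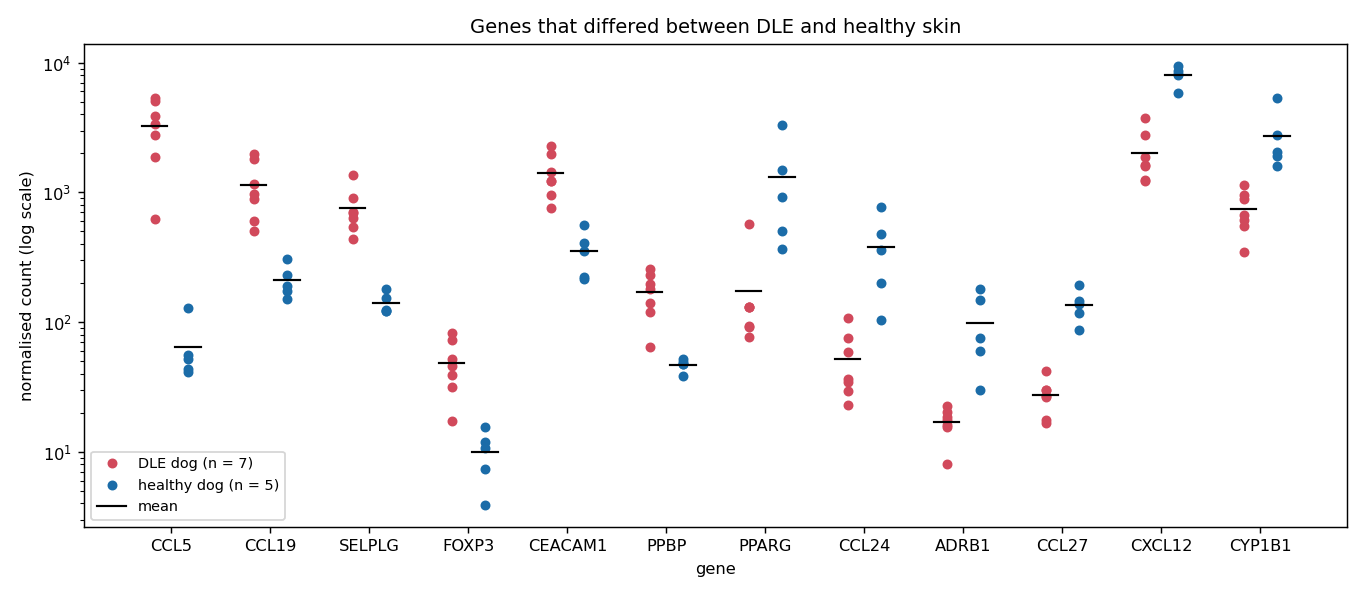
Normalised counts (log scale) of 12 named genes in 7 DLE dogs (red, left of each pair) and 5 healthy dogs (blue), with group means as black bars. The plotted counts of CCL5, CCL19, SELPLG, FOXP3, CEACAM1 and PPBP are higher in every DLE dog, those of CXCL12, CYP1B1, CCL27 and ADRB1 are lower in every DLE dog, and the groups overlap for PPARG and CCL24. FOXP3 lay below background in every healthy dog and ADRB1 in most DLE dogs, so a separation is not shown for these genes.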

How the data were processed

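RNA of archival, paraffin-embedded skin biopsies of 15 dogs was measured with a custom NanoString panel, per the labels' protocols. The deposited values are whole counts per probe (lowest 1), with 14 control rows beside 160 panel probes. No source used here names the software or says whether background was subtracted or counts were scaled before deposit. Accessions were matched without version to RefSeq names of assembly UU_Cfam_GSD_1.0, which gave 72 symbols. No coordinates or sequences were used. Counts and tests cover all probes, but 1 named gene is not reported here by name.

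TMM factors were computed with edgeR 4.0.16 (R 4.3.3) over the panel probes of 7 DLE and 5 healthy dogs. SDs are of log2(normalised count + 1), and counting error is Poisson. DLE and healthy dogs were compared on the counts by glmQLFit and glmQLFTest without covariates, after filterByExpr and without HPRT1 and RPL13A (154 probes), with Benjamini-Hochberg adjustment. The control row set as a block, DESeq2 1.42.0 and other scalings were alternatives. Tested on simulated counts of these 12 dogs (DLE against healthy, 154 probes, 40 changed, 10 runs), it found 35.3% of the 2-fold changes and 86.9% of those of 4-fold, with 4.47% false calls. The simulation changed fewer probes than the 95 called in the data, so its rates need not hold there. No 2 healthy columns were duplicates (lowest chi-square per degree of freedom 162).

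The members, gene groups and alternatives were chosen with earlier results of these data known. Gene groups were assigned after the panel's symbols were seen. Named were the 12 highest and the 10 most variable symbols, members of the groups, and the 6 largest changes in each direction between DLE and healthy dogs among symbols found in all or none of the healthy dogs.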

Additional observations from a re-analysis of the deposited data

Results flagged for a closer look

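In several groups of dogs 1 value lay far from the others by Dixon's criterion (genes on the log2 scale). Among the 72 named genes in the 5 healthy dogs this happened for 5, and chance gives about 1 in 20. CCL5 was high in healthy dog 2, at 129 normalised counts. PTGER4 was low in healthy dog 3, at 453, and PPBP low in healthy dog 2, at 38.7. CD40LG was low in healthy dog 5, at 7.97 normalised counts, and IFNK low in healthy dog 2, at 2.58, both below the background limit. The number of probes above background was high in healthy dog 3, at 148, the dog with the most panel counts. In DLE skin PPARG was high in DLE dog 6, at 569 normalised counts, and ADRB1 was low in DLE dog 4, at 7.97, below the background limit.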

How the results depend on the processing

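Of 54 probes found in some and 10 in none of the healthy dogs, 28 and 44 were so with 1 normalised limit for all dogs, and 34 and 33 with healthy dog 3 scaled to the mean panel total of the others. With the limit at the mean of the low rows 3 were found in none. With 1 healthy dog left out these classes ran from 28 to 54 and from 10 to 36, both extremes of change without dog 3. The scaling of dog 3 and the limit at the mean were added after the data were seen. The 12 highest named genes were the same 12 under all 6 other scalings, and 11 or 12 of them remained with 1 dog left out. Of the 10 most variable, 7 to 9 remained under the alternatives, and the median SD was 0.94 with spike-in scaling. Probes lower in DLE skin numbered 17 with reference gene and 17 with spike-in scaling, and calls with the control row set as a block, in 9 lupus against 6 control dogs, were 34 higher and 6 lower. With the replicate block, for 5 pairs of dogs that share only a number (correlations -0.139 to 0.17), 51 were higher and 34 lower. The spike-in scaling of DLE against healthy dogs rested on other control rows in each group. The number of probes above background per dog differed by 15.25 to 26.5 between DLE and healthy dogs with 1 dog left out. Where a cause is not stated, it was not tested. Counts near 25 cannot be told from background in most healthy dogs.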
